A study of Mus musculus with 32 samples.

Results

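The levels of 5 STAT genes (Stat2, Stat3, Stat4, Stat5a and Stat6) and of 4 genes of the SOCS feedback family (Socs1, Socs2, Socs3 and Cish) were followed in mouse bone marrow-derived macrophages (BMDMs). These 9 genes were taken by name from the gene column of the array, which gave 15 probes of the 33153 that carry a gene symbol. Socs2 had 4 probes, Stat6 had 3, Stat3 had 2 and the others had 1 each. All 9 genes were among the 16038 genes tested, and 14 of the 15 probes passed the filter on dim spots.
BMDMs were grown from the marrow of WT (C57BL/6) mice and of Ifnar1-/- mice, whose receptor for IFNα and IFNβ is missing a chain, and were treated on day 7 of culture for 6 h. Cells of both genotypes were untreated, or received zVAD alone, LPS or IFNβ alone, either ligand together with zVAD, or either ligand together with zVAD and Nec-1. TLR4 recognises LPS, a component of bacterial walls, while zVAD blocks caspases and Nec-1 blocks RipK1, a kinase of the necroptosis pathway. LPS was labelled as 100 ng/mL and IFNβ as 1000 U/mL, whereas the study's methods and legends name other doses, so the doses behind these arrays are uncertain. The 2 genotypes and 8 treatments made 16 groups of 2 arrays, 32 arrays in all. The labels do not say that the replicates came from separate mice, and the p-values measure the spread between these arrays, which may be technical.

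STAT proteins are latent transcription factors. A cytokine that binds its receptor activates the JAK kinases attached to it, the kinases phosphorylate STATs, and paired STATs enter the nucleus and switch on target genes. Type I interferon acts mainly through a complex that holds STAT2 and IRF9 and binds the interferon-stimulated response element (ISRE), while STAT homodimers bind the gamma-activated site (GAS). Among the targets are the SOCS genes and Cish, whose products bind activated receptors or JAKs and dampen the same signal. In macrophages LPS can reach this pathway indirectly, through IFNβ and other cytokines that the cells release. By which route LPS changed the genes below was not tested.

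Promoter sequences are shown for the 4 members whose window held such a motif and which responded to LPS or IFNβ below. The RefSeq promoter table (GRCm38.p6) matched 8 of the 9 members. It holds 32851 promoters of 250 bases before to 50 bases after a gene's start. Each was searched on both strands for a GAS (TTCNNNGAA), a GAS with 4 bases between its arms (TTCNNNNGAA) and an ISRE core (TTTCNNTTTC, or GAAANNGAAA on the other strand). Of all promoters, 8.3% held the GAS, 6.95% the wider GAS and 3.44% the ISRE core. Stat2 (chr10:128270248-128270497, plus strand) held an ISRE core at bases -222 to -213 from the start and a wider GAS at -210 to -201. Socs1 (chr16:10785537-10785786, minus strand) held 2 overlapping ISRE cores at -83 to -74 and -77 to -68. Socs3 (chr11:117969367-117969616, minus strand) held 1 GAS at -154 to -146. Cish (chr9:107296409-107296678, plus strand) held a GAS at bases 1 to 9 and another at 12 to 20. Capitals mark these motifs, and each sequence is given 5′ to 3′ on the strand of its gene.
Stat2: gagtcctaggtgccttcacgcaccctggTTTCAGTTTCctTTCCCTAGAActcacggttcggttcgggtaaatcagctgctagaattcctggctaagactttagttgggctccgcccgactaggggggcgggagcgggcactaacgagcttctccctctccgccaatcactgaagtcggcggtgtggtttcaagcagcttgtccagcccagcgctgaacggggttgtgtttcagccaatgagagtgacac
Socs1: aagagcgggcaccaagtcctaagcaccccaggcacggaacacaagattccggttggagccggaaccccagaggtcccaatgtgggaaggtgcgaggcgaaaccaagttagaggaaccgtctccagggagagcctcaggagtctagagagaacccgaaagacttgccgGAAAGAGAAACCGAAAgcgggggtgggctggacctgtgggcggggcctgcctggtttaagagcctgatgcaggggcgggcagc
Socs3: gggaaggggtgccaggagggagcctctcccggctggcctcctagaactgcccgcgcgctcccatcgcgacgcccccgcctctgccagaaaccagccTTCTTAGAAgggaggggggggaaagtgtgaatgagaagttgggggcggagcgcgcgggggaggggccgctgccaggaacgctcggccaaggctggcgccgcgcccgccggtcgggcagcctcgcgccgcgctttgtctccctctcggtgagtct
Cish: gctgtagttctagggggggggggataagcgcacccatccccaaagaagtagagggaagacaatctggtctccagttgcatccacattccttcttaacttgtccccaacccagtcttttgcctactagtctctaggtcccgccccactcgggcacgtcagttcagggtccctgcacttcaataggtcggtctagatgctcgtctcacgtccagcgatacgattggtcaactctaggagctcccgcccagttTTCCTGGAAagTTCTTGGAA
Of the remaining members, 1 of the 2 Stat4 promoters held an ISRE core at -97 to -88, and the windows of Stat3, Stat5a (2 entries) and Stat6 held none of the 3 motifs. A match describes the letters of this window and not a bound site.

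Levels are quantile-normalized log2 intensities, so a step of 1 is a doubling of signal, and they can be compared between arrays for a given probe but not between probes. Differences were tested with limma in 1 fit of all groups, and a gene is called changed at a Benjamini-Hochberg adjusted p under 0.05 over all genes of the comparison. The arrays lay on 4 slides, each with the 8 treatments of 1 genotype and 1 replicate number. The WT slides were scanned on different days, and both Ifnar1-/- slides together on another day. Within a treatment genotype therefore cannot be told apart from slide or scan day. A constant offset of a slide or scan day cancels in a response to treatment and in the difference between the responses of both genotypes. A slide or scan day that stretched or compressed the log2 scale would not cancel, and this was not tested. On WT arrays 54.8% to 77.7% of probes passed the scanner's background test, against 44.5% to 61.6% on Ifnar1-/- arrays. All 8 macrophage markers were well above background on every array, as were 6 of 7 neutrophil and 3 of 3 endothelial markers, 4 of 5 of fibroblasts, 2 of 4 of T cells, 2 of 4 of B cells, 1 of 4 of dendritic cells, 1 of 4 of mast cells and 0 of 3 of erythroid cells. The mean log2 level of the 5 fibroblast and stroma markers was 6.02 to 7.86 over the WT groups and 7.94 to 9.42 over the Ifnar1-/- groups, with 6.85 and 8.32 in untreated cells and 7.86 and 9.42 with LPS. That of the 4 dendritic cell markers was 7.81 in untreated WT BMDMs, 8.63 with LPS, 8.36 with IFNβ and 9.09 with LPS+zVAD, and in Ifnar1-/- BMDMs it was 7.53, 8.24, 7.43 and 8.53. The part of any marker list in the results was not tested. In these bulk samples fewer cells of a type and less RNA per cell cannot be told apart. The 3 Ifnar1 probes had medians of 13.2, 8.52 and 10.6 in WT and 11.8, 6.81 and 8.13 in Ifnar1-/- BMDMs. The deleted part of the gene is not given in the sources used here, and the probes may lie outside it.

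Some arrays stood apart. The library labelled Ifnar1-/- LPS+zVAD+Nec-1 replicate 2 correlated at 0.947 across genes with its own replicate and at 0.993 with Ifnar1-/- IFNβ+zVAD+Nec-1 replicate 2. It read 8.90 for Socs3 and 7.46 for Socs1, where replicate 1 read 16.15 and 11.36. The Ifnar1-/- zVAD pair disagreed for Socs3 (11.49 and 8.58) and Cish (8.45 and 6.58), and the WT LPS+zVAD pair for Socs2 (6.98 and 9.91). Since all groups share 1 estimate of spread, these pairs widened the errors of Socs3, whose standard error for a response was 1.33 and became 0.367 without both Ifnar1-/- pairs, and of Socs1 (0.80 and 0.506). That fit without both pairs was chosen after seeing the data, and it kept the WT LPS+zVAD pair. Over all genes the Ifnar1-/- zVAD replicates correlated at 0.988, with 4.38% of genes more than 1 log2 apart. Both pairs left out disagreed for Socs3, so its smaller error follows from the choice, and likewise for Socs1 and Cish. Calls of these genes made in that fit and not with all arrays describe this dependence and are no separate evidence of a change. Comparisons that use the LPS+zVAD+Nec-1 group in Ifnar1-/- BMDMs are given with and without its replicate 2.

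In WT BMDMs LPS raised Stat2, Stat3, Stat5a, Socs1, Socs3 and Cish, and IFNβ raised Stat2, Stat3, Socs1, Socs2, Socs3 and Cish. Without the receptor LPS still raised Stat5a, Socs1, Socs3 and Cish, and also Socs2, whereas no member was called with IFNβ. Of all genes 41.7% were called with LPS in WT (16.1% higher) and 36.1% with IFNβ (13.5% higher), where each ligand raised 6 of the 9 members. With LPS+zVAD 8 of 9 were called (51.3% of all genes), with IFNβ+zVAD 6 (38.3%), with LPS+zVAD+Nec-1 7 (41.5%) and with IFNβ+zVAD+Nec-1 6 (32.6%). zVAD alone gave no call among the members, at 0.00624% of all genes and with 0 members at an unadjusted p under 0.05. Socs3 was called there in the fit without both odd Ifnar1-/- pairs (2.27 log2, adjusted p = 0.0131). Over the 7 treatments of WT BMDMs 39 of 63 tests were called, 37 higher and 2 lower, both of the lower ones in Stat6.
In Ifnar1-/- BMDMs 11 of 63 tests were called, all higher. They were 5 members with LPS (25.2% of all genes, 10.6% higher) and 6 with LPS+zVAD (29%, 10.8% higher). No member was called with IFNβ (0% of all genes, 0 members at an unadjusted p under 0.05), zVAD (0% and 1 member), IFNβ+zVAD (0.00624% and 2 members), IFNβ+zVAD+Nec-1 (1.78% and 1 member) or LPS+zVAD+Nec-1 (1.33% and 3 members). Without replicate 2 of the last group, Socs3 was higher by 7.75 (adjusted p = 1.67e-06 from limma) and Socs1 by 3.85 (adjusted p = 0.000239).
The difference between the responses of both genotypes was tested directly and called in 16 of 63 tests, 14 lower and 2 higher in Ifnar1-/- BMDMs. There were 3 members with LPS (6.63% of all genes), 4 with IFNβ (19.3%), 4 with IFNβ+zVAD (19.8%), 2 with LPS+zVAD+Nec-1 (18.2%) and 3 with IFNβ+zVAD+Nec-1 (18.5%). No member was called for LPS+zVAD (16.3% of all genes, 2 members at an unadjusted p under 0.05) or zVAD (0% and 0 members). With the slide as a block 3 differences for LPS+zVAD were called, at -1.50 log2 for Stat2 (adjusted p = 0.000643), -0.79 log2 for Stat3 (0.0113) and 0.64 log2 for Stat6 (0.0228). The block also called Stat6 for IFNβ+zVAD (0.68 log2, 0.0152), and Socs1 (-3.29 log2, 0.0345) and Stat5a (-1.08 log2, 0.0397) for LPS+zVAD+Nec-1. Both of the latter depended on the pair that stood apart. Without Ifnar1-/- LPS+zVAD+Nec-1 replicate 2 Socs1 was at -1.34 log2 (0.299) and Stat5a at -0.75 log2 (0.279), and without replicate 1 they were at -5.24 log2 (9.21e-05) and -1.41 log2 (0.0173). The Stat2 difference for this treatment was -2.57 log2 without replicate 2 (0.00162) and -1.26 log2 and not called without replicate 1 (0.0643), and it was also not called without WT untreated replicate 2 (0.0501) or Ifnar1-/- untreated replicate 2 (0.0700). The Stat3 difference without replicate 2 was -1.86 log2 (0.00509).

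**Figure D1:**
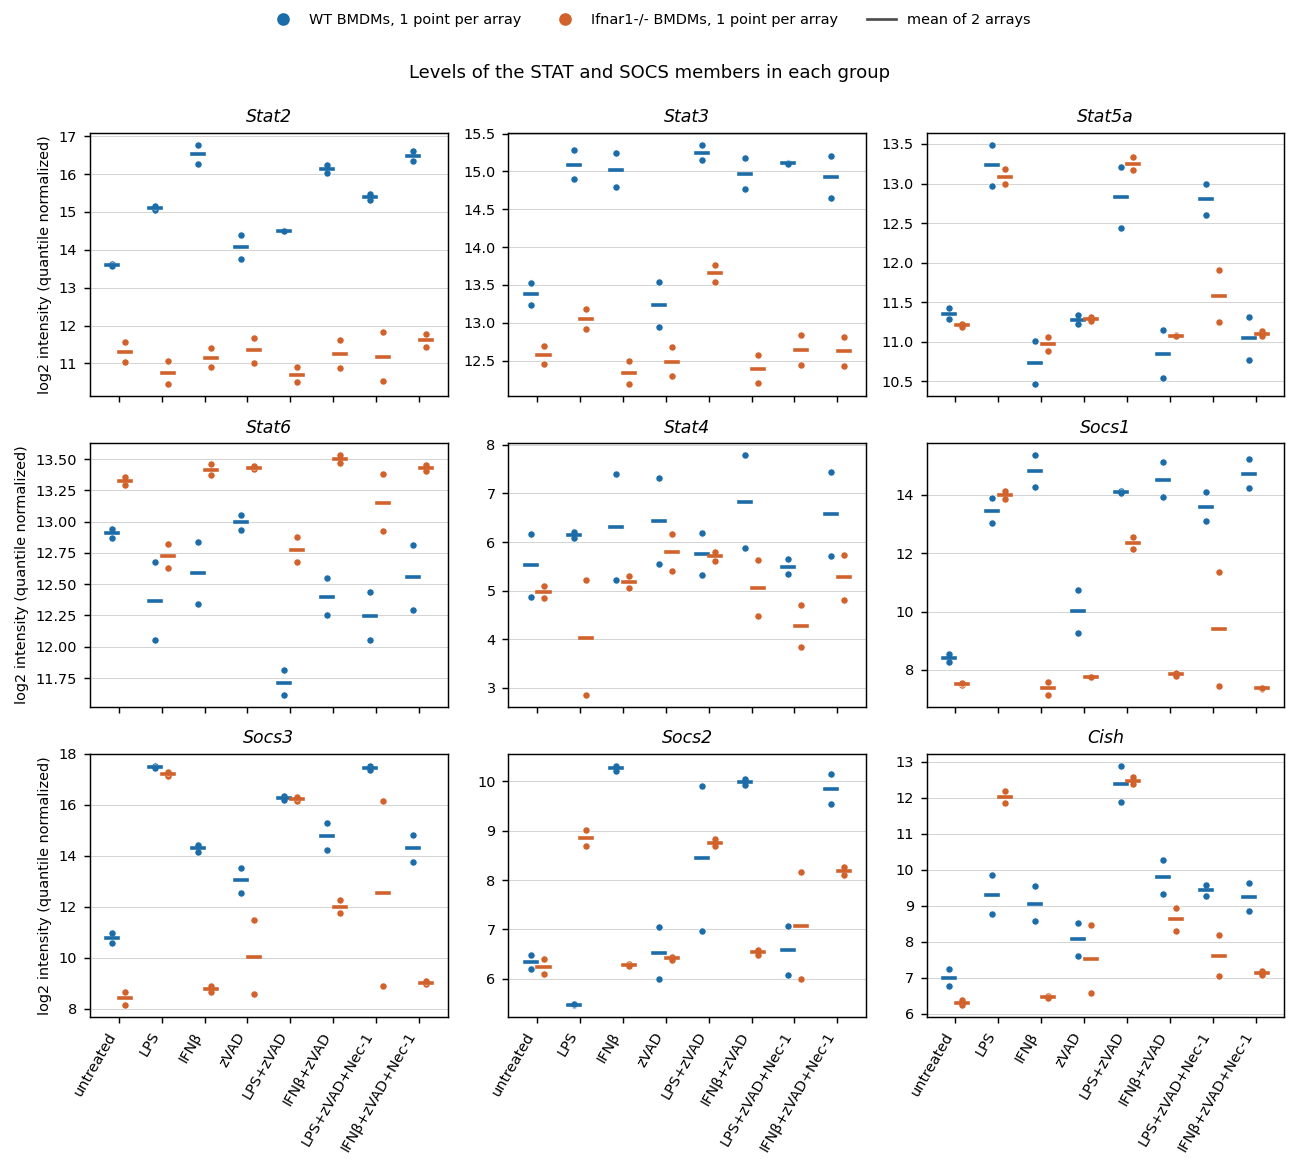
Log2 intensity (y axis, quantile normalized) of the 9 members in the 8 treatments (x axis) of WT and Ifnar1-/- BMDMs, with 1 point per array and a bar at the mean of 2 arrays; panels have their own y ranges. Stat2 was between 13.56 and 16.77 on the WT arrays and between 10.45 and 11.84 on the Ifnar1-/- arrays.

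**Figure D2:**
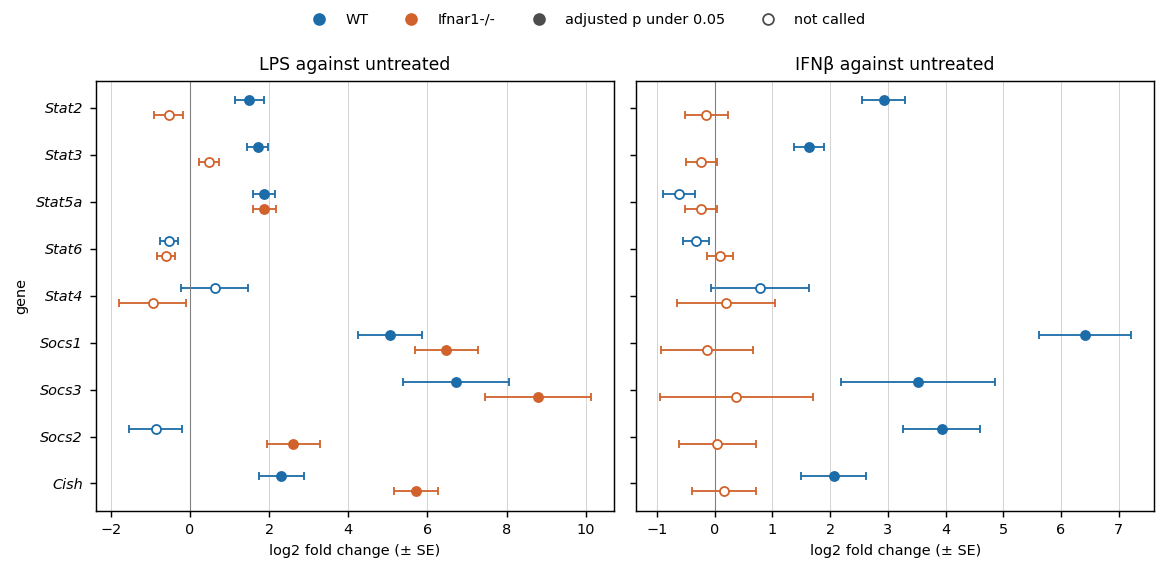
Log2 fold change against untreated cells (x axis, with its standard error from limma) of each member with LPS (left) and IFNβ (right), filled where the adjusted p was under 0.05. With IFNβ the Ifnar1-/- values lie between -0.23 and 0.37 and none is filled, whereas with LPS Stat5a, Socs1, Socs3, Socs2 and Cish are filled in Ifnar1-/- BMDMs.

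Stat2, the partner of IRF9 in the complex that type I interferon activates, was measured by 1 probe (mm9 chromosome 10, 127729834 to 127729893, base 4330 of its transcript). In WT BMDMs both replicates read 13.64 and 13.56 untreated, 15.05 and 15.14 with LPS, and 16.28 and 16.77 with IFNβ. Ifnar1-/- arrays read 11.04 and 11.56 untreated, 10.45 and 11.07 with LPS, and 10.90 and 11.40 with IFNβ. The WT groups did not overlap, while the Ifnar1-/- groups did. Stat2 rose 2.83-fold with LPS (1.50 log2, standard error 0.37, adjusted p = 0.0030 from limma) and 7.59-fold with IFNβ (2.92 log2, adjusted p = 6.56e-06). The log2 fold changes in Ifnar1-/- BMDMs were -0.54 with LPS (adjusted p = 0.337) and -0.15 with IFNβ (adjusted p = 1). With the slide as a block the change with LPS was called (adjusted p = 0.0341), as was that with LPS+zVAD (-0.59 log2, 0.0190). The response was lower than in WT by -2.04 log2 with LPS (adjusted p = 0.0226) and by -3.07 log2 with IFNβ (adjusted p = 0.000415). The first of these differences was no longer called when any of 5 of the 8 arrays was left out (WT untreated 1 or 2, Ifnar1-/- untreated 2, WT LPS 1, Ifnar1-/- LPS 1), with adjusted p from 0.0625 to 0.116 and values from -1.73 to -2.09.
Across all groups the 3 highest were WT IFNβ (16.52), IFNβ+zVAD+Nec-1 (16.48) and IFNβ+zVAD (16.13), of which the first and second overlapped. The 8 WT groups lay above the 8 Ifnar1-/- groups, whose means ran from 10.71 to 11.61 and in which each neighbour overlapped the next. With LPS+zVAD in WT Stat2 read 14.49 and 14.51, higher than untreated by 0.90 log2 (adjusted p = 0.0489), a call that was lost without any 1 of the 4 arrays (adjusted p 0.111 to 0.154). It was lower with LPS+zVAD than with LPS in WT by -0.60 log2, which was called with the slide as a block (adjusted p = 0.0164).

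Stat3, which carries the signals of IL-6 and IL-10, was measured by 2 probes, of which the brighter (mm9 chromosome 11, 100749598 to 100749657, base 2953) was used. WT BMDMs had 13.52 and 13.23 untreated, 15.28 and 14.89 with LPS, and 15.24 and 14.80 with IFNβ. Ifnar1-/- BMDMs had 12.45 and 12.69 untreated, 12.92 and 13.18 with LPS, and 12.19 and 12.49 with IFNβ. All WT arrays given LPS or IFNβ were above all untreated ones, and the Ifnar1-/- arrays given LPS were above the untreated ones by a smaller step. The rise in WT was 1.71 log2 with LPS (limma, standard error 0.26, adjusted p = 4.74e-05) and 1.64 log2 with IFNβ (adjusted p = 8.76e-05). Values in Ifnar1-/- BMDMs were 0.48 (adjusted p = 0.208, and 0.0194 with the slide as a block) and -0.23 (adjusted p = 1). The genotype difference was -1.87 log2 with IFNβ (adjusted p = 0.0016). For LPS it was -1.23 log2 with an adjusted p of 0.0544, and it was called with the slide as a block (0.00113), when arrays were instead aligned at their 75th percentile (0.0176, with -1.66 log2) and without both odd Ifnar1-/- pairs (0.0445).
LPS+zVAD gave the highest level in each genotype, at 15.15 and 15.35 in WT and 13.54 and 13.76 in Ifnar1-/- BMDMs. In the latter this was higher than untreated by 1.08 log2 (adjusted p = 0.00458) and, with the slide as a block, higher than LPS alone by 0.60 log2 (adjusted p = 0.0113). The 6 WT groups with LPS or IFNβ had means of 14.92 to 15.25, and apart from the highest of them each overlapped its neighbour.

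Stat5a, a transducer of GM-CSF and other growth factor signals, was measured by 1 probe (mm9 chromosome 11, 100746373 to 100746432, base 3777) and moved with LPS to a like extent in both genotypes. It read 11.29 and 11.42 in untreated WT BMDMs, 13.49 and 12.97 with LPS, and 11.01 and 10.46 with IFNβ. Ifnar1-/- BMDMs read 11.23 and 11.19 untreated, 13.00 and 13.18 with LPS, and 10.89 and 11.06 with IFNβ. The rise with LPS was 3.67-fold in WT (1.87 log2, standard error 0.28, adjusted p = 3.55e-05 from limma) and 3.68-fold in Ifnar1-/- BMDMs (1.88 log2, adjusted p = 0.00014). The difference between these was 0.01 log2 with a 95% confidence interval from -0.82 to 0.84 (adjusted p = 0.998), and it turned to -0.32 under the 75th percentile shift. With IFNβ Stat5a lay below the untreated arrays by -0.62 log2 in WT (adjusted p = 0.0958) and -0.23 log2 in Ifnar1-/- BMDMs (adjusted p = 1). It was higher with LPS than with IFNβ in WT by 2.49 log2 (adjusted p = 7.85e-06), in a comparison of both ligands that was chosen after the levels were seen and that called 20.5% of all genes. The 5 highest groups were LPS, LPS+zVAD of both genotypes and LPS+zVAD+Nec-1 of WT, with means of 12.80 to 13.25, and none of them was separated from the next.

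Stat6, the STAT of IL-4 and IL-13, was measured by 3 probes, and the brightest (mm9 chromosome 10, 127097689 to 127097748, base 3450) was used. It read 12.87 and 12.94 in untreated WT BMDMs, 12.05 and 12.68 with LPS, 12.34 and 12.83 with IFNβ, and 11.62 and 11.81 with LPS+zVAD. Ifnar1-/- BMDMs read 13.36 and 13.29 untreated, 12.63 and 12.83 with LPS, 13.37 and 13.46 with IFNβ, and 12.68 and 12.88 with LPS+zVAD. Every group with LPS alone or LPS+zVAD was below the untreated arrays of its genotype. Stat6 fell in WT by -1.19 log2 with LPS+zVAD (limma, standard error 0.23, adjusted p = 0.000206). With LPS+zVAD+Nec-1 it fell by -0.66 log2 (adjusted p = 0.0249, not called under the 75th percentile shift, at -0.42, or without WT untreated replicate 1 or 2 or WT LPS+zVAD+Nec-1 replicate 1). With LPS alone the change was -0.54 log2 in WT (adjusted p = 0.0644) and -0.60 log2 in Ifnar1-/- BMDMs (adjusted p = 0.0604), and with the slide as a block both were called (adjusted p = 0.00414 and 0.00322), as were IFNβ+zVAD in WT (-0.50 log2, 0.00711) and LPS+zVAD in Ifnar1-/- BMDMs (-0.55 log2, 0.00521). The difference between the genotypes' responses was -0.06 log2 with LPS (95% confidence interval -0.73 to 0.61) and 0.41 log2 with IFNβ (adjusted p = 0.424). The IFNβ changes themselves were -0.32 log2 in WT (adjusted p = 0.304) and 0.09 log2 in Ifnar1-/- BMDMs (adjusted p = 1).

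Stat4, the STAT of IL-12, was dim in these cells, and its probe (mm9 chromosome 1, 52163802 to 52163861, base 2754) was well above background on 25 of 32 arrays, including all 16 WT arrays and 9 of the 16 Ifnar1-/- arrays. The WT arrays ran from 4.87 to 7.78 with a median of 5.99 and the Ifnar1-/- arrays from 2.86 to 6.16 with a median of 5.16. Replicates lay far apart, as in the LPS-treated Ifnar1-/- pair (2.86 and 5.21) and the IFNβ-treated WT pair (5.21 and 7.39). No comparison of Stat4 was called in the limma fit, and its response to LPS was 0.63 log2 in WT (standard error 0.85, adjusted p = 0.61) and -0.94 log2 in Ifnar1-/- BMDMs (adjusted p = 0.499). With IFNβ the values were 0.78 (adjusted p = 0.532) and 0.19 (adjusted p = 1). The genotype differences were -1.57 with LPS (95% confidence interval -4.08 to 0.95) and -0.59 with IFNβ. Blocked fits changed some calls of Stat4, and they differed among themselves. LPS+zVAD was above LPS in Ifnar1-/- BMDMs by 1.67 log2 with the slide as a fixed block (adjusted p = 0.0361) or a random block (0.0478). IFNβ+zVAD against untreated in WT was called with the fixed block (0.0475) and not with the random one (0.0632). The same held for LPS+zVAD+Nec-1 against LPS+zVAD in Ifnar1-/- BMDMs (0.0448 and 0.0593), where 0 of 2 arrays of the former group were well above background. Between genotypes LPS-treated cells differed by -2.11 log2 and IFNβ+zVAD-treated cells by -1.78 log2. Their adjusted p were 0.00495 and 0.0101 with the replicate number as a block, and 0.0348 and 0.0543 with the random slide block. Replicate numbers pair arrays only within a genotype, so the former block holds no pairs between genotypes and its calls are no evidence of these differences.

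Socs1, whose product inhibits JAK kinases directly, was measured by 1 probe (mm9 chromosome 16, 10783951 to 10784010, base 1110). Its levels in WT BMDMs were 8.25 and 8.55 untreated, 13.89 and 13.03 with LPS, and 15.36 and 14.27 with IFNβ. Those in Ifnar1-/- BMDMs were 7.47 and 7.55 untreated, 13.86 and 14.12 with LPS, and 7.15 and 7.59 with IFNβ. The LPS-treated groups of both genotypes overlapped, whereas the IFNβ-treated Ifnar1-/- arrays overlapped the untreated ones. Socs1 rose 33.2-fold with LPS in WT (5.05 log2, standard error 0.80, adjusted p = 6.12e-05 from limma), 85.0-fold with IFNβ in WT (6.41 log2, adjusted p = 5.57e-06) and 89.3-fold with LPS in Ifnar1-/- BMDMs (6.48 log2, adjusted p = 4.19e-05). With IFNβ its log2 fold change in Ifnar1-/- BMDMs was -0.14 (adjusted p = 1). The genotype difference was -6.55 log2 with IFNβ (adjusted p = 0.000464). For LPS it was 1.43 log2 with a 95% confidence interval from -0.94 to 3.80 (adjusted p = 0.577).
The 7 highest groups were all 6 WT groups with LPS or IFNβ and the LPS-treated Ifnar1-/- group, with means of 13.46 to 14.81 and each overlapping the next. Below them stood Ifnar1-/- LPS+zVAD, at 12.15 and 12.57, and zVAD alone in WT, at 9.25 and 10.75 (1.60 log2 above untreated, adjusted p = 0.911).

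Socs3, which binds the gp130 receptor chain and limits IL-6 signalling, was measured by 1 probe (mm9 chromosome 11, 117827480 to 117827539, base 2585). WT BMDMs read 10.57 and 10.96 untreated, 17.53 and 17.44 with LPS, and 14.44 and 14.13 with IFNβ. Ifnar1-/- BMDMs read 8.15 and 8.66 untreated, 17.12 and 17.27 with LPS, and 8.65 and 8.90 with IFNβ. These 3 WT groups did not overlap, and the LPS-treated arrays were the highest in both genotypes, with those of WT just above those of Ifnar1-/- BMDMs. The rise with LPS was 105-fold in WT (6.72 log2, standard error 1.33, adjusted p = 0.000492 from limma) and 444-fold in Ifnar1-/- BMDMs (8.79 log2, adjusted p = 0.000158). IFNβ raised Socs3 in WT by 3.52 log2 (adjusted p = 0.0454), a call that was lost without any 1 of the 4 arrays (adjusted p 0.112 to 0.154). Its change with IFNβ in Ifnar1-/- BMDMs was 0.37 log2 (adjusted p = 1).
The genotype differences of the response were 2.07 log2 with LPS (adjusted p = 0.648) and -3.15 log2 with IFNβ (adjusted p = 0.274). In the fit without both odd Ifnar1-/- pairs these values had adjusted p of 0.0181 and 0.000335 and were called. The smaller error of that fit follows from leaving out arrays that disagreed for Socs3 itself. Also called without these pairs, among others, were zVAD alone in WT (12.54 and 13.53, 2.27 log2 above untreated, adjusted p = 0.0131), IFNβ+zVAD in Ifnar1-/- BMDMs against untreated (12.24 and 11.76, 3.60 log2, adjusted p = 0.000108) and LPS+zVAD against LPS in WT (16.36 and 16.17 against 17.53 and 17.44, -1.22 log2, adjusted p = 0.0141). In the fit of all arrays their adjusted p were over 0.05.

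Socs2, an inhibitor of growth hormone signalling, was measured by 4 probes, and the brightest (mm9 chromosome 10, 94875066 to 94875125, base 1220) was used. In WT BMDMs it read 6.20 and 6.48 untreated, 5.47 and 5.48 with LPS, and 10.32 and 10.22 with IFNβ. Ifnar1-/- arrays read 6.40 and 6.08 untreated, 8.69 and 9.01 with LPS, and 6.30 and 6.26 with IFNβ. The order of both ligands was thus opposite in the 2 genotypes, since the mean with LPS was the lowest of all 16 groups in WT and the highest of the Ifnar1-/- groups, where it overlapped LPS+zVAD (8.69 and 8.83). The rise with IFNβ in WT was 15.3-fold (3.93 log2, standard error 0.67, adjusted p = 0.000153 from limma). LPS gave -0.87 log2 in WT (adjusted p = 0.332) and a rise of 2.61 log2 in Ifnar1-/- BMDMs (adjusted p = 0.00732). That rise was not called without Ifnar1-/- untreated replicate 2 (adjusted p = 0.056, 2.45 log2) or Ifnar1-/- LPS replicate 2 (0.0556, 2.45 log2). IFNβ gave 0.04 log2 in Ifnar1-/- BMDMs (adjusted p = 1).
The genotype difference of the Socs2 response was -3.89 log2 with IFNβ (adjusted p = 0.00714) and 3.48 log2 with LPS (adjusted p = 0.0317). The LPS difference kept its direction but was not called without any 1 of the 8 arrays (adjusted p 0.0508 to 0.111, values from 3.32 to 3.63) or under normexp background correction (2.20 log2, adjusted p = 0.0587). In WT Socs2 was lower with LPS than with IFNβ by -4.80 log2 (adjusted p = 6.53e-05), in the comparison chosen after the levels were seen. A further high group was Ifnar1-/- IFNβ+zVAD+Nec-1 (8.09 and 8.27), which was 1.94 log2 above untreated with an adjusted p of 0.211.

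Cish, whose product competes for STAT5 docking sites on receptors, was measured by 1 probe (mm9 chromosome 9, 107204196 to 107204255, base 2064). It read 6.76 and 7.24 in untreated WT BMDMs, 9.85 and 8.77 with LPS, and 8.57 and 9.55 with IFNβ. Ifnar1-/- BMDMs read 6.24 and 6.38 untreated, 11.85 and 12.17 with LPS, and 6.50 and 6.43 with IFNβ. Both LPS-treated Ifnar1-/- arrays were above both LPS-treated WT arrays, and in WT the 2 ligands overlapped. Cish rose 4.96-fold with LPS in WT (2.31 log2, standard error 0.56, adjusted p = 0.00259 from limma) and 52.1-fold in Ifnar1-/- BMDMs (5.70 log2, adjusted p = 7.64e-06). It rose by 2.06 log2 with IFNβ in WT (adjusted p = 0.00718), and its change in Ifnar1-/- BMDMs was 0.16 log2 (adjusted p = 1).
The WT call for LPS was lost without WT LPS replicate 1 (1.77 log2, adjusted p = 0.0533) and that for IFNβ without WT untreated replicate 1 (1.82 log2, 0.0622) or WT IFNβ replicate 2 (1.57 log2, 0.0918). For LPS the genotype difference was 3.39 log2 higher in Ifnar1-/- BMDMs (adjusted p = 0.0126), and it was not called without WT untreated replicate 2, Ifnar1-/- untreated replicate 1 or Ifnar1-/- LPS replicate 2 (3.15 to 3.33 log2, adjusted p 0.0526 to 0.0575). For IFNβ the difference was -1.90 log2 (adjusted p = 0.102, and 0.0446 with the slide as a block).

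Relative to LPS alone, LPS+zVAD raised Cish and Socs2 in WT BMDMs and lowered Stat6. Of these, Cish was the one that LPS alone had also raised. Cish went from 9.85 and 8.77 with LPS to 11.87 and 12.89 with LPS+zVAD, a rise of 3.07 log2 or 8.41-fold (standard error 0.56, adjusted p = 0.000295 from limma). Socs2 went from 5.47 and 5.48 to 6.98 and 9.91, a rise of 2.97 log2 (adjusted p = 0.00182) that was 1.50 log2 and not called without WT LPS+zVAD replicate 2 (adjusted p = 0.0754). Against untreated cells Socs2 was higher by 2.10 log2 (adjusted p = 0.0128), and by 0.64 log2 without that array (0.404). Stat6 fell by -0.65 log2 (adjusted p = 0.031), which was not called without WT LPS replicate 2 (-0.34 log2, 0.415), without either WT LPS+zVAD array or under the 75th percentile shift (-0.80 log2, 0.0630). These 3 of 9 members compare with 34.6% of all genes.
In Ifnar1-/- BMDMs 0 of 9 members were called for zVAD added to LPS (8.52% of all genes, 1 member at an unadjusted p under 0.05). There Socs1 was lower with LPS+zVAD (12.15 and 12.57) than with LPS (13.86 and 14.12) by -1.63 log2, which was called without both odd pairs (adjusted p = 0.0472). Cish was 12.57 and 12.37 with LPS+zVAD, so that the level of Cish with LPS+zVAD was alike in both genotypes (means of 12.38 and 12.47) and above all groups other than LPS-treated Ifnar1-/- BMDMs. The difference between the genotypes in what zVAD added to LPS, tested after the levels were seen, was -2.62 log2 for Cish (adjusted p = 0.0707) and -3.06 log2 for Socs2 (adjusted p = 0.0772), where 3.59% of all genes were called. With the slide as a block both were called (adjusted p = 0.0212 and 0.0328), as was that of Stat6 (0.70 log2, 0.0298).
No member was called in WT for zVAD added to IFNβ (0% of all genes, 0 members at an unadjusted p under 0.05). Neither was one called in Ifnar1-/- BMDMs (0.00624% of all genes, 2 members at an unadjusted p under 0.05). The 2 were Socs3, at 8.65 and 8.90 with IFNβ and 12.24 and 11.76 with IFNβ+zVAD (3.23 log2, adjusted p = 1), and Cish, at 6.50 and 6.43 and then 8.93 and 8.31 (2.15 log2, adjusted p = 0.736). Neither pair of groups overlapped, and the Socs3 difference had an adjusted p of 0.0005 without both odd Ifnar1-/- pairs.

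Nec-1 added to LPS+zVAD lowered Cish in both genotypes. In WT BMDMs it read 9.58 and 9.27 after Nec-1, lower by -2.96 log2 than with LPS+zVAD (standard error 0.56, adjusted p = 0.000562 from limma) and in the range of LPS alone. Socs2 read 6.08 and 7.08, lower by -1.87 log2 (adjusted p = 0.0434), but its groups overlapped and the value was -0.40 log2 without WT LPS+zVAD replicate 2. These were 2 of 9 members, with 28.4% of all genes called. With the slide as a block Stat2 was also called in WT, from 14.49 and 14.51 to 15.32 and 15.47 (0.89 log2, adjusted p = 0.00127), as was Stat6 (0.53 log2, adjusted p = 0.00645).
In Ifnar1-/- BMDMs 4 of 9 members were called (19.4% of all genes), and all 4 fell. Cish fell by -4.85 log2 (adjusted p = 2.25e-05), Socs1 by -2.95 log2 (0.015), Stat5a by -1.67 log2 (0.000602) and Stat3 by -1.01 log2 (0.0118). Without replicate 2 of the LPS+zVAD+Nec-1 group the values were -4.28 for Cish, -1.34 for Stat5a and -1.21 for Stat3, all called (adjusted p = 0.00056, 0.0136 and 0.0222), while Socs1 read 11.36 on the other array and was not called (adjusted p = 0.348). Stat3 was not called without Ifnar1-/- LPS+zVAD replicate 2 (adjusted p = 0.0857) or Ifnar1-/- LPS+zVAD+Nec-1 replicate 1 (0.0631). Socs2 was called without replicate 2 (-2.77 log2, adjusted p = 0.02) or with the slide as a block (-1.69 log2, 0.0481), and stood at -0.60 log2 without replicate 1 (0.589). Socs3 was at -3.70 log2 with both arrays (adjusted p = 0.0581, and 0.0329 with the slide as a block), at -0.08 log2 without replicate 2 (0.968) and at -7.32 log2 without replicate 1 (2.41e-06).
No member was called for Nec-1 added to IFNβ+zVAD in WT (0% of all genes, 0 members at an unadjusted p under 0.05) or in Ifnar1-/- BMDMs (1.61% of all genes, 3 members). The 3 were Socs3, which read 8.95 and 9.07 after Nec-1 (-2.99 log2, adjusted p = 0.436), Cish at 7.19 and 7.09 (-1.48 log2, 0.291) and Socs2 at 8.09 and 8.27 (1.65 log2, 0.353). Without both odd Ifnar1-/- pairs the Socs3 difference had an adjusted p of 0.000225.

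**Figure D3:**
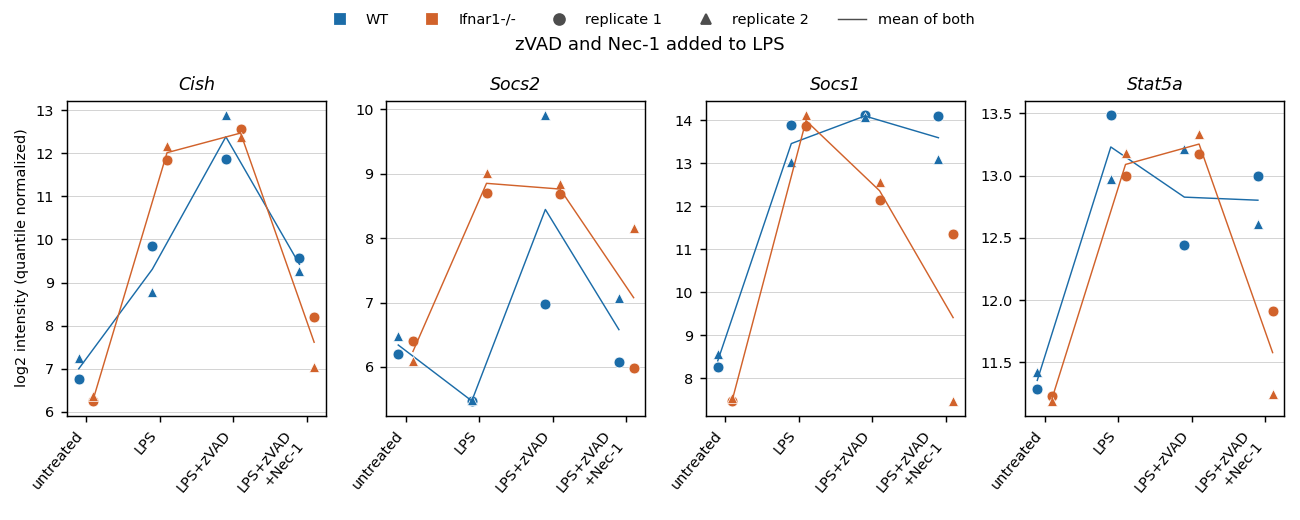
Log2 intensity (y axis, quantile normalized) of Cish, Socs2, Socs1 and Stat5a in untreated cells and with LPS, LPS+zVAD and LPS+zVAD+Nec-1 (x axis), with a circle for replicate 1, a triangle for replicate 2 and a line that joins the means. Cish reached 12.38 in WT and 12.47 in Ifnar1-/- BMDMs with LPS+zVAD, and the Ifnar1-/- arrays with Nec-1 lay apart for Socs1 at 11.36 and 7.46.

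Within a treatment, 34 of 72 tests between Ifnar1-/- and WT BMDMs were called, 27 lower and 7 higher in Ifnar1-/-. Genotype cannot be told apart from slide or scan day in any of these tests. Under the 75th percentile shift 35 were called, 32 lower and 3 higher, and the share of all genes called there was not counted. Stat2 was lower in all 8 treatments, from -2.30 log2 in untreated cells (adjusted p = 0.000482 from limma) to -5.37 log2 with IFNβ (adjusted p = 1.71e-09). Untreated cells differed in 1 of 9 members (8.75% of all genes) and zVAD-treated cells in 1 (8.25%), in both cases Stat2. With the slide as a random block Stat3 was called too, in untreated cells (-0.81 log2, adjusted p = 0.0235) and in zVAD-treated cells (-0.75 log2, 0.0357). The former was also called with the replicate number as a block (0.0484). These values are those of the brighter Stat3 probe. The second probe went the other way, with untreated means of 7.96 in Ifnar1-/- and 7.58 in WT BMDMs. With zVAD its means were 7.85 and 7.58. Socs2 with IFNβ+zVAD+Nec-1 (-1.67 log2, adjusted p = 0.0518) was called with the replicate number as a block (0.0328) and not with the random slide block (0.0912). Replicate numbers pair arrays only within a genotype, so a block on them holds no pairs between genotypes. There were 4 members with LPS (28.6%), 7 with IFNβ (43.9%), 3 with LPS+zVAD (37.6%), 5 with IFNβ+zVAD (43.8%), 7 with LPS+zVAD+Nec-1 (40.4%) and 6 with IFNβ+zVAD+Nec-1 (42.2%). With LPS, Cish was higher by 2.70 log2 (adjusted p = 0.00124) and Socs2 by 3.38 log2 (0.000858), while Stat3 was lower by -2.04 log2 (1.21e-05). Stat6 was higher in 5 treatments, by 0.83 to 1.10 log2, of which 4 were not called under the 75th percentile shift. In untreated cells Socs3 stood lower by -2.36 log2 in Ifnar1-/- BMDMs, which was called without both odd pairs (adjusted p = 0.000412) and not with all arrays (adjusted p = 0.339). Of the 7 calls with LPS+zVAD+Nec-1, those of Cish (-1.23 log2, adjusted p = 0.177), Socs3 (-1.30 log2, 0.21) and Stat6 (0.68 log2, 0.0613) were lost without replicate 2.

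Several members had more than 1 probe, which gave a check within the array but none on the samples, since probes of a gene read the same RNA. The first 3 Socs2 probes rose with IFNβ in WT by 3.93, 3.65 and 3.89 log2 and with zVAD added to LPS by 2.97, 3.11 and 2.94 log2, all called. They shared the split of the WT LPS+zVAD pair, whose lower and higher readings were 6.98 and 9.91, 6.81 and 9.63, and 6.76 and 9.66. Without WT LPS+zVAD replicate 2 the first probe rose by 1.50 log2. For the genotype difference with LPS they gave 3.48, 3.38 and 2.97 log2, and the last was not called (adjusted p = 0.079 from limma). The fourth Socs2 probe, designed on another transcript (mm9 chromosome 10, 94848005 to 94848064), was well above background on 0 of 32 arrays. The second Stat3 probe rose in WT by 2.16 log2 with LPS and 2.27 log2 with IFNβ, and its genotype difference with LPS was -1.59 log2 (adjusted p = 0.0437). In untreated and zVAD-treated cells its mean was higher in Ifnar1-/- than in WT BMDMs, opposite to the first probe. The Stat6 probes gave -1.19, -0.79 and -1.12 log2 with LPS+zVAD in WT, and the second was not called (adjusted p = 0.11).

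**Figure D4:**
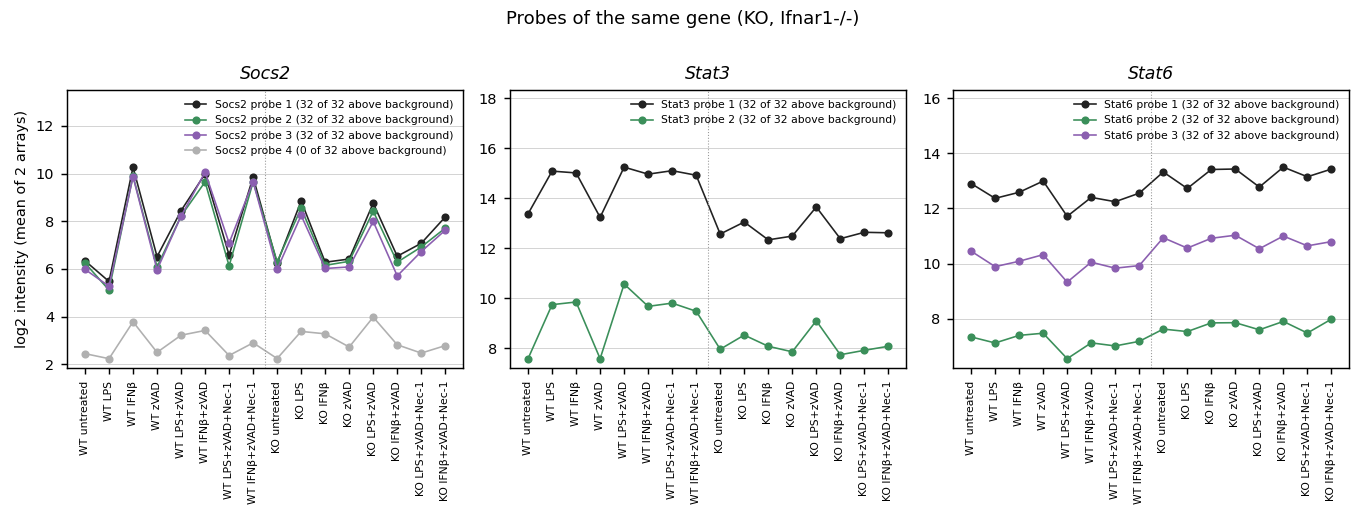
Log2 intensity (y axis, mean of 2 arrays) of each probe of Socs2, Stat3 and Stat6 in the 16 groups (x axis), with lines that join the means of a probe. The first 3 Socs2 probes run together, and the fourth was well above background on 0 of 32 arrays.

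For each member the 3 other genes with the most similar pattern were found by Pearson's r over the 16 group means. The search covered the 16037 genes with a mean in every group, the member itself set aside. It is a description of groups that share slides and treatments. Stat2 was closest to Gm14446 (0.995), Tnfsf10 (0.994) and Fbxw17 (0.992). Socs1 was closest to Gbp2 (0.986), Gbp7 (0.986) and Sppl2a (0.984), and Socs3 to Fpr2 (0.979), Dyrk2 (0.978) and Tma16 (0.978). Cish was closest to Pvr (0.947), Yrdc (0.944) and Tnf (0.939). For Stat3 these were A530032D15Rik (0.989), Naa25 (0.986) and Rbm12b2 (0.986), for Stat5a Cav1 (0.969), Luc7l (0.966) and Adamts4 (0.96), and for Stat6 Spcs1 (0.98), Ncaph2 (0.979) and Fancg (0.978). The lowest likeness was found for Stat4 with Agpat9 (0.878), Smim22 (0.847) and Ddx17 (0.843), and for Socs2 with Tom1l2 (0.881), Gpr171 (0.88) and 2610005L07Rik (0.88).

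The rest of the JAK-STAT pathway was described with a list of 89 genes, of which 78 were tested. With IFNβ in WT BMDMs 45 of the 78 (57.7%, against 36.1% of all genes) were called, 37 higher and 8 lower, with a median log2 fold change of 0.84 against -0.18 over all genes. Under the 75th percentile shift the split was 43 higher and 2 lower, and the share of all genes called there was not counted. With LPS 48 (61.5%, against 41.7%) were called, 37 higher and 11 lower, with a median of 0.72 against -0.09. In Ifnar1-/- BMDMs LPS changed 38 (48.7%, against 25.2%), 27 higher and 11 lower, and IFNβ changed 0, with 1 gene at an unadjusted p under 0.05. The genotype difference was called for 33 genes with IFNβ (42.3%, against 19.3%), 30 lower and 3 higher in Ifnar1-/-, and for 8 genes with LPS (10.3%, against 6.63%), all lower.
The shares of the sublists are read against the same 36.1% with IFNβ and 41.7% with LPS. Among the kinases and other transducers IFNβ raised 4 of 7 (57.1%), with Jak2 higher by 2.55 log2 (adjusted p = 2.32e-05 from limma), and LPS raised 3 of 7 (42.9%), with Jak2 higher by 3.39 log2 and Jak3 by 1.16 log2. Of 16 ligands on the list 8 were tested, and all 8 were called with each agent in WT, 7 higher and 1 lower. A ligand that is dim in untreated cells can pass the filter on dim probes through the treated groups. The filter may therefore shape this share, which was not tested. The cytokine Il6 rose by 8.90 log2 with IFNβ and 12.76 log2 with LPS, Csf1, which encodes M-CSF, by 5.57 log2 with IFNβ, and Il10 by 5.17 log2 with LPS, while Il4 fell by -1.47 and -1.07 log2. Il6 was well above background on 1 of 2 untreated arrays and Il4 on 1 of 2 arrays with IFNβ.
Of 23 receptors IFNβ raised 6 and lowered 3, a share of 39.1% near that of all genes, among them Il12rb1 (6.93 log2), Il13ra1 (2.57 log2), Ifngr1 (-1.67 log2) and Il6ra (-0.90 log2). LPS raised 6 and lowered 6 (52.2%), among them Il4ra (4.09 log2), Il13ra1 (2.57 log2), Lifr (-2.25 log2) and Il7r (-2.23 log2). Of 16 other inhibitors IFNβ raised 4 and lowered 4 (50.0%), with Usp18, which acts at the type I interferon receptor, higher by 4.64 log2, Socs7 by 1.57 log2 and Ptpn1 lower by -0.73 log2. LPS raised 6 and lowered 3 (56.2%), with Usp18 higher by 4.11 log2, Ptpn2 by 0.97 log2 and Socs6 lower by -1.10 log2. Pias3 was not well above background with either agent and was at least 2.3-fold lower with IFNβ and at least 3.02-fold lower with LPS (adjusted p = 0.000985 and 0.00454 from limma). Such a bound sets the brighter group against the dimmest probes well above background on the arrays of the other.
Genes chosen as targets of STAT3, STAT5 and STAT6 were taken as lists of their own. The lists do not give whether a STAT raises or lowers a target, so a rise is not read as activity of that STAT. Of 6 targets of STAT3, 2 (33.3%) rose with IFNβ (Il1rn by 5.54 log2 and Junb by 1.82 log2), and LPS raised 3 and lowered 1, with Il1rn at 7.54, Bcl3 at 1.84 and Fos at -1.18 log2. All 5 targets of STAT5 rose with IFNβ, led by Il2ra (5.61 log2) and Ccnd1 (3.78 log2), and 3 rose with LPS (Il2ra by 4.82 and Pim1 by 3.26 log2). The same agent raised 2 of them in Ifnar1-/- BMDMs and lowered 3, where 10.6% of all genes were called higher and 14.6% lower. Of 5 targets of STAT6, IFNβ raised Arg1 (3.92 log2) and LPS raised Ccl17 (3.61 log2) and Arg1 (3.20 log2). Il2ra and Arg1 were each well above background on 1 of 2 untreated arrays.

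**Figure D5:**
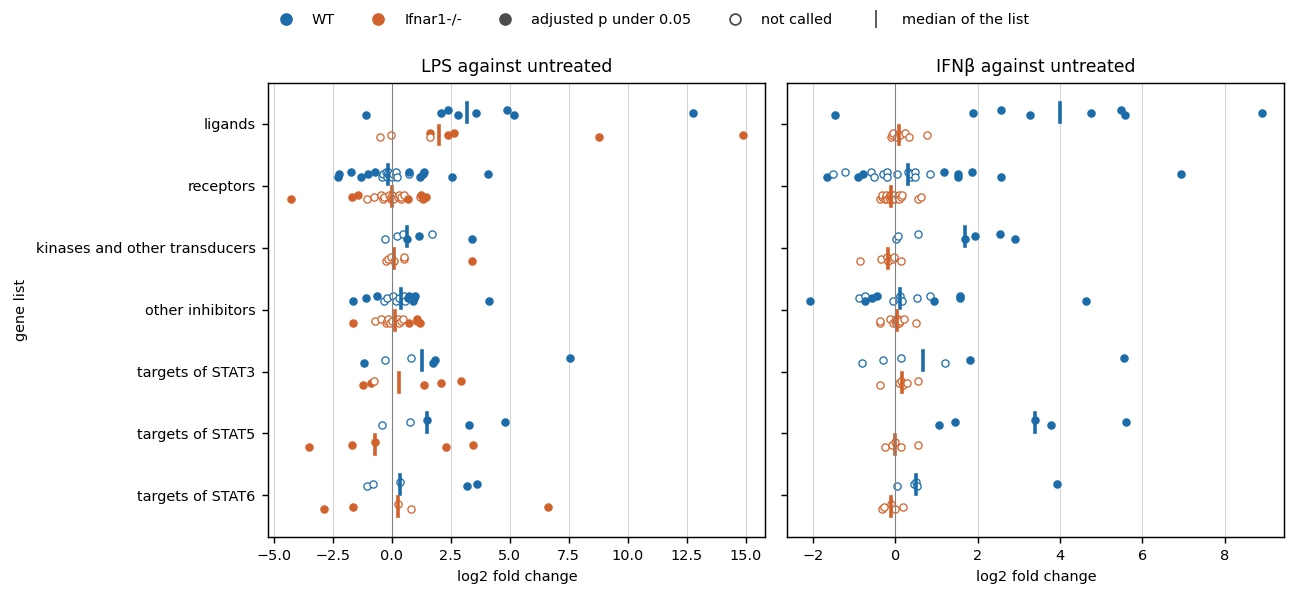
Log2 fold change against untreated cells (x axis) of genes of the JAK-STAT list with LPS (left) and IFNβ (right) in 7 sublists (y axis), with 1 point per gene, filled at an adjusted p under 0.05, and a tick at the median of the sublist. With IFNβ points are filled in WT BMDMs in every sublist and 0 are filled in Ifnar1-/- BMDMs.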

How the data were processed

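The deposited scanner files hold, per the file headers, 1-colour Agilent intensities from Feature Extraction 11.5, in which the authors' software subtracted local background and corrected trends within the array. Probe positions are on mm9 per the file headers. Outlier spots were left out, intensities were taken to log2, quantile-normalized as in the study's methods and averaged over repeated spots. Probes well above background on at least 50% of the 32 arrays were kept (21465 of 33153), with 1 probe, the brightest, standing for each of 16038 genes. The authors also deposited a table of processed log2 values, used as an alternative. limma 3.58.1 in R 4.3.3 fitted the 16 group means (16 residual degrees of freedom) with Benjamini-Hochberg adjustment, and was tested on simulated data. A probe's number of arrays limits the precision, and 0 member spots were saturated.
Samples were grouped by the labels. Named were all 9 members, with fold changes for called comparisons and for the LPS and IFNβ responses and their genotype differences, the 3 most similar genes of each, and up to 2 rises and 2 falls of each sublist of the JAK-STAT list. Other values given were chosen after they were seen. The members and lists were chosen with earlier results of these data known.
Replicate numbers mark slides within a genotype. Deviations from the group means correlated between arrays of a slide at 0.318 to 0.669 in WT and 0.166 to 0.584 in Ifnar1-/- BMDMs, and between genotypes at -0.004 to 0.328, so the numbers pair samples within a genotype and the blocked value stands beside the results described whose call it changes.
Alternatives were a shift to a common 75th percentile, normexp background correction (offset 50), the authors' table, other filters, the mean of a gene's probes, blocks, fits of the compared arrays alone and leaving out each array. The fit without both Ifnar1-/- zVAD and LPS+zVAD+Nec-1 pairs was added later. No mm9 annotation was used here, so exons of the probes are not given beyond the transcript position in the files. Some items are not reported here.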

Additional observations from a re-analysis of the deposited data

Results flagged for a closer look

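In 16 of 63 tests the response of a member differed between Ifnar1-/- and WT BMDMs by limma's test of the difference itself, and these are given as values, Ifnar1-/- minus WT on the log2 scale. With LPS the differences were 3.39 for Cish, 3.48 for Socs2 and -2.04 for Stat2, each of which lost its call when some single arrays were left out. With IFNβ they were -6.55 for Socs1, -3.89 for Socs2, -3.07 for Stat2 and -1.87 for Stat3. With IFNβ+zVAD they were -5.78 for Socs1, -3.36 for Socs2, -2.58 for Stat2 and -1.78 for Stat3. With LPS+zVAD+Nec-1 they were -1.91 for Stat2 and -1.66 for Stat3, in a group whose Ifnar1-/- replicate 2 stood apart. With IFNβ+zVAD+Nec-1 they were -6.46 for Socs1, -2.58 for Stat2 and -1.50 for Stat3. Single arrays left out also ended the calls of Socs2 with IFNβ+zVAD (3 of 8 arrays, adjusted p 0.0539 to 0.0631), Stat2 with LPS+zVAD+Nec-1 (3 of 8 arrays, 0.0501 to 0.0700) and Stat3 with IFNβ+zVAD+Nec-1 (1 of 8 arrays, 0.0536).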

How the results depend on the processing

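Of 112 called comparisons of the members, 106 stayed called under the 75th percentile shift, 110 under normexp, 106 in the authors' table, 106 without a filter, 106 with the mean of a gene's probes and 92 when only the arrays compared were fitted. Member calls for zVAD added to LPS or IFNβ were 6 with the slide as a fixed or as a random block and 6 without both odd Ifnar1-/- pairs, against 3. Those for Nec-1 added were 11 with the fixed block, 10 with the random block and 0 with only the arrays compared, against 6. Without single arrays the first ranged from 1 to 4 and the second from 3 to 9. With the replicate number as a block all 112 stayed called, and the calls were 41 in WT, 13 in Ifnar1-/- BMDMs, 22 for the genotype difference, 4 for zVAD, 9 for Nec-1 and 38 between genotypes, and 49 and 51 list genes with IFNβ and LPS. That block holds no pairs of arrays between genotypes. In the alternative fits, here and above, the share of all genes called was not counted. A change in these counts is therefore no result about the members or the list. Some uncalled values changed sign. These were the LPS genotype difference of Stat5a under the 75th percentile shift (-0.32) and, with the mean of probes, Socs2 with IFNβ in Ifnar1-/- BMDMs (-0.025) and the LPS genotype difference of Stat6 (0.085). Leaving out single arrays gave Stat4 from -0.025 to 1.28 with LPS and from -0.31 to 1.87 with IFNβ in WT, from -2.11 to 0.23 with LPS in Ifnar1-/- BMDMs and from -1.68 to 0.50 for the IFNβ genotype difference. The LPS genotype differences of Stat5a and Stat6 ran from -0.25 to 0.26 and from -0.37 to 0.25. With IFNβ in Ifnar1-/- BMDMs Socs1 ran from -0.36 to 0.077, Socs2 from -0.12 to 0.20 and Stat2 from -0.41 to 0.11. The cause was not tested. The 75th percentile shift moved the median of all genes by -0.345 to 0.329 log2, and by over 0.1 in 21 of 37 comparisons. Signal over background limits Stat4, and 2 arrays a group limit every value.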
